A study of Mus musculus with 4 samples.

Results

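Cultured mouse mesenchymal stem cells of bone marrow (primary cells) labelled Kdm4b knockout (KO) were compared with cells labelled wild type (WT), both kept in control medium for 4 days, by the RNA of all genes. Members were the genes with at least 1 FPKM (fragments per kilobase of transcript, corrected for the size of the library, so a level per length) in at least 1 of the 2 control libraries, after date-like entries and small RNA genes had been dropped. These were 11698 genes of 23036 entries, and 12090 genes reached the same level in at least 1 of the 4 libraries of the series. The remaining libraries came from WT and KO cells kept 4 days in osteogenic medium. Each of the 4 groups held 1 library of bead-purified polyadenylated RNA, so no value below has a replicate, a spread or a test. How the knockout was made, whether the cells were pooled from several mice, and how old the mice were are not given in the sources used here. In the WT and KO control libraries, the summed FPKM of the dropped small RNA genes made up 12.7% and 9.01% of all, and Rn45s alone 0% and 2.55% of what was left.

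KDM4B is a demethylase that removes methyl groups from lysine 9 and lysine 36 of histone H3, and H3K9 methylation marks silenced chromatin. Mesenchymal stem cells of the marrow, also called skeletal stromal cells, are the adherent fraction that can form bone, fat and cartilage and that secretes collagen, proteoglycans and factors for blood cells. Plastic-adherent mouse marrow cultures are known to carry macrophages along, and glial and pericyte cells live in the same marrow niche.

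Kdm4b itself was at 4.60 FPKM in the WT library and 4.30 FPKM in the KO library, a log2 ratio of -0.08, and thus did not separate the libraries. A gene-level value does not resolve a deleted exon, so no value here checks the genotype labels, and directions below are between libraries as labelled. All ratios are log2((KO + 1)/(WT + 1)) of FPKM unless another scale is named. Within this family Kdm4a was at 15.4 and 15.6 FPKM and Kdm4c at 5.53 and 6.91 FPKM in WT and KO. Of 20 used genes that add, remove or bind methyl groups at H3K9, none differed 1.5-fold, and their median ratio was 0.10. Xist, which coats the inactive X chromosome of females, had a level of 24.0 and 30.5 FPKM, so both control libraries were female in type, whereas the induced WT library had 0.0621 FPKM of Xist and 28.7 FPKM of the Y-linked Ddx3y.

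Across media, control WT lay nearer to induced KO than to induced WT, whereas control KO lay nearest to induced KO by median distance. Over the 11698 genes, control WT differed from induced KO by a median absolute log2 ratio of 0.14, compared with 0.25 from control KO and 0.43 from induced WT; the genes past 2-fold numbered 203, 176 and 1578. For control KO the distances were 0.24 from induced KO, the library of the same label, 0.25 from control WT and 0.27 from induced WT. Its genes past 2-fold numbered 186, 176 and 969 in the same order. The summed FPKM was 612025 in control WT and 604456 in induced KO, but 532543 in control KO and 507641 in induced WT. Atp6v0c and its copy, described further on, fell into the pairs of the summed FPKM, which the distances of control KO did not show. Atp6v0c was at 64.9 FPKM in control WT and 99.99 FPKM in induced KO. It was at 555 FPKM in control KO and 678 FPKM in induced WT. Whether labels were exchanged was not tested; with the labels of the control pair exchanged, every direction given below for control medium would turn round.

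The cell markers were those of a mixed culture in both libraries. Of 11 stromal markers 9 reached 1 FPKM, and their summed level was 504 FPKM in WT and 539 FPKM in KO; Lepr and Nt5e, markers of marrow stroma in vivo, were near 0 (0.198 and 0.125 FPKM for Lepr, 0.187 and 0.168 FPKM for Nt5e). Macrophage markers were far more abundant. The 9 found of 10 summed to 12121 FPKM in WT and 10990 FPKM in KO, led by Lyz2, the lysozyme of phagocytes, at 7937 and 6915 FPKM. The sum of 6 Schwann cell markers was 55.7 FPKM in WT and 40.0 FPKM in KO. The neutrophil genes Elane, Mpo, Ltf and S100a9 and the lymphocyte genes Cd3e and Ms4a1 were listed at 0 in both control libraries, the mast cell genes Cpa3, Mcpt4 and Tpsb2 were at or below 0.0739 FPKM, and the endothelial Cdh5 was at 0.282 and 0.475 FPKM. Other markers of these types were higher, with the neutrophil S100a8 at 2.11 and 0.721 FPKM in WT and KO and the mast cell Kit at 0.285 and 0.485 FPKM. The endothelial Kdr was at 0.874 and 1.82 FPKM and Pecam1 at 1.31 and 1.30 FPKM. The megakaryocyte gene Pf4 was at 175 and 130 FPKM, but the erythroid Alas2 at 0.0592 and 0.0649 FPKM. The osteoclast gene Ctsk was at 36.9 and 34.0 FPKM, but Calcr was listed at 0 in both. In bulk RNA, fewer cells of a type and less RNA per cell cannot be told apart. The part of a different share of stromal cells, macrophages or glia in the groups below was not tested.

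In the library labelled KO, 78 genes (0.667% of the genes used) were at least 2-fold higher and 98 (0.838%) at least 2-fold lower, while 11522 lay within 2-fold. At 1.5-fold, 583 genes (4.98%) were higher and 761 (6.51%) lower. The median ratio over all genes was -0.01, with quartiles at -0.27 and 0.24. In 27 of the genes 2-fold higher and 40 of the genes 2-fold lower, both libraries were at 5 FPKM or more. Scaling both libraries to an equal sum of FPKM moved the median of all genes to 0.16 and turned the 2-fold split into 158 higher and 53 lower, so statements on a small shared offset of many genes depend on the scaling.

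**Figure D1:**
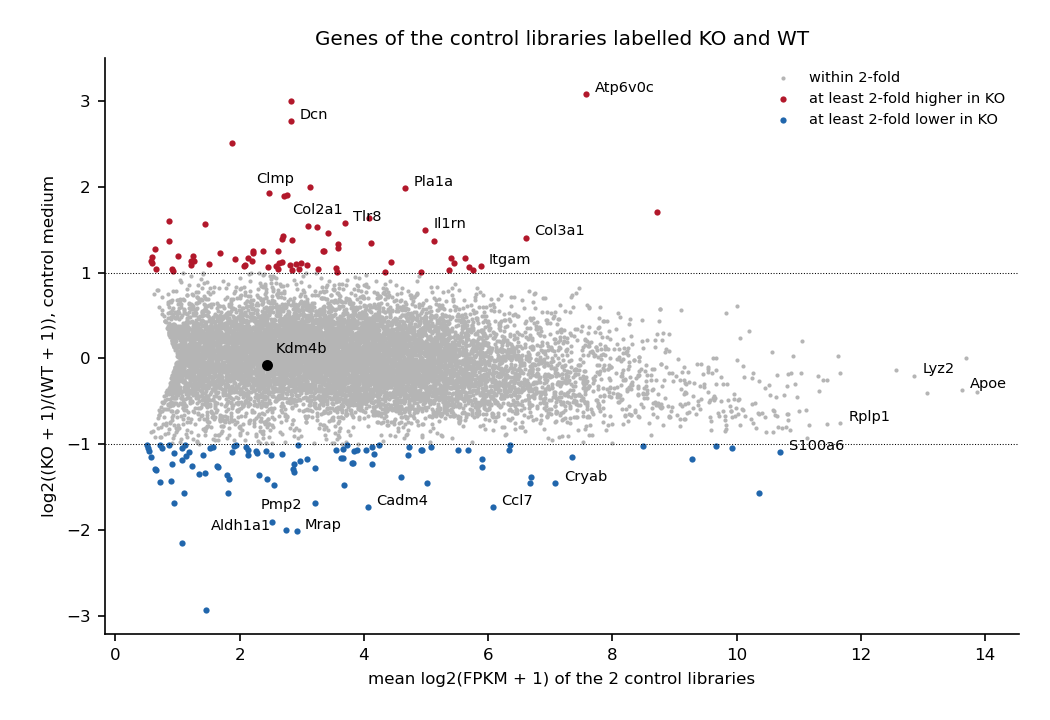
Each point is 1 gene; the x axis is its mean log2(FPKM + 1) over the 2 control libraries and the y axis its log2 ratio of KO to WT on FPKM + 1. Red points mark the genes at least 2-fold higher and blue points those at least 2-fold lower in KO (dotted lines), of which 78 and 98 were counted; Rn45s and Erdr1 lie above the range drawn, and Kdm4b (black) lies at -0.08.

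The ratio followed transcript length over the whole transcriptome. With the genes put into 10 groups of like size by length, the median ratio was -0.42 in the shortest (up to 1353 bases) and 0.24 in the longest (from 6609 bases), with a steady climb through the groups between them. Across 11624 genes with a known length the Spearman correlation of ratio and length was 0.52, and that of ratio and GC content was -0.41, a description across genes of 2 libraries. Of the 98 genes at least 2-fold lower, 44 came from the shortest group and none from the longest. Under induction the same genes ran the other way, from a median of 0.43 in the shortest group to -0.44 in the longest, in libraries that share no sample with the control pair. The part of this trend in any gene group was not tested. To show each group beside it, a length-adjusted ratio is given, which is the ratio minus the median of genes of like length (20 bins). On that scale 465 genes (4%) were at least 1.5-fold higher and 362 (3.11%) at least 1.5-fold lower, and at 2-fold the counts were 69 and 48. Of the genes with a length, 51 of 74 called 2-fold higher and 40 of 97 called 2-fold lower kept a 2-fold difference.

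**Figure D2:**
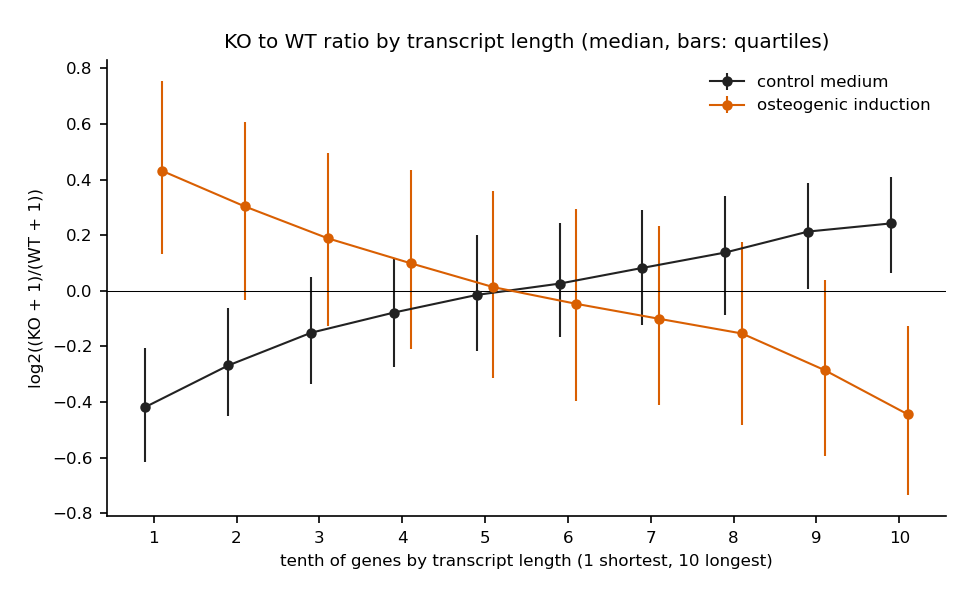
Median log2 ratio of KO to WT (points) and its quartiles (bars) in 10 groups of genes by transcript length, from shortest to longest, in control medium (black) and under osteogenic induction (orange). The control medians climb from -0.42 to 0.24, and those of induction fall from 0.43 to -0.44.

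Several of the highest ratios in KO belonged to genes of the fibrous matrix. Dcn, which encodes decorin, a small proteoglycan that coats collagen fibrils, was at 1.72 FPKM in the WT library and 17.5 FPKM in the KO library (ratio 2.77, length-adjusted 2.64). Its level was also higher in the KO library under induction, at 2.13 and 11.95 FPKM in WT and KO. Lum, for the related lumican, was at 0.0264 and 1.21 FPKM in WT and KO, and Aspn, for asporin, at 1.38 and 3.21 FPKM. Of 8 used genes of small leucine-rich proteoglycans, 3 were at least 1.5-fold higher, compared with 4.98% of all genes, and none 1.5-fold lower. Lum passed the minimum of 1 FPKM only in KO, so a higher level in KO was a condition of its use. The list median was 0.39 (0.44 length-adjusted), and 0.24 with no minimum FPKM. Bgn, for biglycan, the most abundant member, was nearly level at 447 and 483 FPKM.

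Among the collagens, Col3a1, the fibrillar chain of loose connective tissue, was at 59.0 FPKM in the WT library and 158 FPKM in the KO library (ratio 1.41). Col2a1, the fibrillar chain of cartilage, was at 2.40 and 11.6 FPKM, and Col10a1, the chain of hypertrophic cartilage, at 2.96 and 9.41 FPKM. Col1a1, the main chain of bone and the most abundant collagen here, stood at 235 and 329.6 FPKM (ratio 0.48), and its partner Col1a2 at 279.5 and 303 FPKM. Col18a1, a basement membrane chain, was the member farthest on the other side, with a ratio of -0.81. The 19 used chains had a median of 0.32, with 3 at least 1.5-fold higher, compared with 4.98% of all genes, and 1 lower. These genes are long (median 5930 bases), and the length-adjusted median was 0.11.

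Most elastic fibre genes lay on the same side, with 10 used members above 0 and 3 below. Efemp2 had a ratio of -0.17. Mfap2, a microfibril glycoprotein, was at 3.29 and 7.80 FPKM (ratio 1.04) and Fbn1, for fibrillin 1, at 10.1 and 18.9 FPKM. Of 13 used members 4 were at least 1.5-fold higher, compared with 4.98% of all genes, and 1, Fbln2, was 1.5-fold lower. The median was 0.45 (0.28 length-adjusted), and 0.15 with no minimum FPKM. The summed level of the used members was 432 FPKM in WT and 436 FPKM in KO. Matrix proteases followed: Mmp2, the gelatinase of mesenchymal cells, was at 28.1 and 58.2 FPKM, and Mmp13, the collagenase of bone, at 16.7 and 28.9 FPKM. In the list of proteases and inhibitors 4 of 19 were at least 1.5-fold higher, compared with 4.98% of all genes, and 1 lower. The median was 0.35 (0.31 length-adjusted). Under induction the median of this list was -0.39, and Mmp2 was at 168 and 41.5 FPKM in WT and KO.

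Further secreted matrix genes at least 2-fold higher in KO were Sulf1, a sulfatase that trims heparan sulfate (4.55 and 15.1 FPKM in WT and KO), Pamr1, a secreted protease-like protein (4.00 and 13.6 FPKM), Cemip, a hyaluronan-degrading protein (1.93 and 5.58 FPKM), Svep1, a large adhesion protein of the matrix (2.03 and 6.08 FPKM), and Nov, a CCN protein (3.42 and 10.5 FPKM). Collagen maturation genes did not share the direction: Lox, the crosslinking oxidase, was at 93.5 and 152 FPKM, but Pcolce2, an enhancer of procollagen cleavage, was at 10.6 and 3.67 FPKM, and the 18 used members had a median of -0.06. Podnl1, a leucine-rich matrix protein, was at 7.81 and 2.34 FPKM, Comp, a cartilage matrix protein, at 3.82 and 1.02 FPKM, and Ecm1, a secreted glycoprotein, at 511 and 252 FPKM, all lower in KO. Tinagl1, a matricellular protein, was at 13.5 and 4.99 FPKM.

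Mesenchymal transcription and adhesion genes stood beside the matrix. Prrx1, the homeobox factor of limb and skeletal mesenchyme, was at 20.4 FPKM in the WT library and 42.1 FPKM in the KO library. Cdh11, the cadherin of osteoblasts and fibroblasts, was at 27.2 and 62.7 FPKM in WT and KO, and Gja1, the gap junction protein connexin 43, at 34.7 and 73.8 FPKM. Clmp, a junctional adhesion protein, had 3.42 and 16.6 FPKM (ratio 1.99), and the protocadherin Pcdh7 6.67 and 17.7 FPKM. The stromal list had a median of 0.34 (0.27 length-adjusted). Of its 19 used genes 6 were at least 1.5-fold higher, compared with 4.98% of all genes. Among the 6 were Thy1 (5.63 and 12.2 FPKM), Eng (18.9 and 33.1 FPKM) and Kitl, the ligand of the blood stem cell receptor Kit (4.53 and 7.90 FPKM). The 2 members of the stromal list past 1.5-fold on the lower side were Nes and Mcam, genes of perivascular cells. Nes was at 17.6 and 7.34 FPKM and Mcam at 10.9 and 4.19 FPKM. The 14 used contractile and pericyte genes had a median of -0.19, which became 0.01 with equal-sum scaling. Of these, 3 were at least 1.5-fold lower and 2 higher, compared with 6.51% and 4.98% of all genes. The lower ones were Mcam, Myl9, a smooth muscle myosin light chain (257 and 130.3 FPKM), and Tpm2, a tropomyosin (193 and 102 FPKM). The higher ones were Rgs5, a pericyte regulator of G proteins (0.0964 and 1.25 FPKM), and the receptor Notch3 (0.819 and 1.83 FPKM). Rgs5 and Notch3 passed the minimum of 1 FPKM only in KO, so a higher level in KO was a condition of their use.

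Of the secreted signals, Hgf, the growth factor of stroma for epithelium, was at 2.95 FPKM in the WT library and 9.64 FPKM in the KO library (ratio 1.43). Gas1, a membrane coreceptor of Hedgehog ligands, was at 13.7 and 30.9 FPKM, and F2r, a thrombin receptor, at 5.59 and 14.6 FPKM. Pla1a, a secreted phospholipase, was at 11.7 and 49.4 FPKM in control medium and at 3.53 and 58.2 FPKM under induction, higher in KO in both. Cygb, for the fibroblast haem protein cytoglobin, was at 5.45 and 16.7 FPKM, and Ndufa4l2, a hypoxia-responsive mitochondrial protein, at 9.90 and 26.7 FPKM. Lower in KO were Gdf15, a stress-induced member of the TGF-beta family (37.5 and 16.7 FPKM), Id1, a target of BMP signalling (114 and 56.5 FPKM), and Insl3, an insulin-like hormone (6.95 and 2.12 FPKM). The Wnt, BMP, TGF-beta, Notch and IGF lists each had a median between -0.03 and 0.23. In the Wnt list the secreted antagonists diverged, with Sfrp4 at 31.1 and 55.7 FPKM and Sfrp2 at 3.80 and 1.60 FPKM.

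Innate immune genes of macrophages formed another group on the higher side. Tlr8, an endosomal receptor for single-stranded RNA, was at 6.51 FPKM in the WT library and 21.3 FPKM in the KO library (ratio 1.57, length-adjusted 1.53). Tlr4, the receptor for lipopolysaccharide, was at 13.2 and 23.1 FPKM, Tlr7, the neighbouring RNA receptor, at 29.0 and 45.0 FPKM, Tlr9, for unmethylated DNA, at 2.16 and 4.62 FPKM, and Tlr13, for bacterial ribosomal RNA, at 55.4 and 90.1 FPKM. Of 9 Toll-like receptors 9 had a ratio above 0, compared with 5671 of all 11698 genes. Of these 9, 5 were at least 1.5-fold higher, compared with 4.98% of all genes. Their median was 0.62, and it was 0.56 after length adjustment and 0.38 after the same adjustment for GC content. Cd14, an accessory protein of Toll-like receptors, was level at 341 and 345 FPKM. The wider list with the NF-kB genes had a median of 0.31 over 21 genes.

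Cd180, a Toll-like protein of B cells and macrophages, was at 36.9 and 76.3 FPKM, and Pik3ap1, an adaptor from Toll-like receptors to PI3 kinase, at 28.9 and 63.5 FPKM. Itgam, the integrin subunit CD11b, was at 39.6 and 84.6 FPKM in WT and KO, and the macrophage surface genes Adgre1, Mrc1 and Mertk were at 130.1 and 220.5 FPKM, 63.6 and 105 FPKM and 13.8 and 23.7 FPKM. Macrophage identity as a whole lay near 0: its 22 used genes had a median of 0.03, and Lyz2, Cd68 and C1qa had ratios of -0.20, -0.22 and -0.17. Those 3 transcripts are short, and their length-adjusted ratios were 0.17, 0.15 and 0.20. The length-adjusted median of the list was 0.21. Cd5l, a secreted macrophage protein, was at 31.8 and 73.0 FPKM in control medium and 12.4 and 79.4 FPKM under induction.

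Of the complement genes, C1s1, a serine protease of the classical pathway that is not on the list, was at 4.42 FPKM in the WT library and 10.7 FPKM in the KO library, and Serping1, the C1 inhibitor, was at 15.3 and 25.8 FPKM. C1qb, the most abundant complement gene, was at 2719 and 2358 FPKM. Il1rn, the antagonist of the interleukin 1 receptor, was at 17.9 and 52.3 FPKM. The alarmin Il33 was low, at 0.326 and 2.02 FPKM. Il18 (9.79 and 4.78 FPKM) and Il34, a ligand of the macrophage growth factor receptor (5.45 and 1.97 FPKM), lay on the lower side. Among chemokines the monocyte attractants Ccl7 and Ccl2 were lower in KO, with Ccl7 at 122 and 36.1 FPKM and Ccl2 at 88.7 and 39.0 FPKM, while Cxcl12, the retention factor of the marrow for blood stem cells, was at 112 and 163 FPKM. The 18 used chemokines had a median of -0.12, which was 0.15 after length adjustment.

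Genes of the type I interferon response mostly had ratios below 0. Isg15, a ubiquitin-like modifier, was at 15.9 FPKM in the WT library and 7.09 FPKM in the KO library, and Bst2, the virus-tethering protein tetherin, at 198 and 105 FPKM. Ifit3, a binder of viral RNA caps with its relatives, was at 5.89 and 2.79 FPKM, and Usp18, the protease that removes ISG15, at 3.27 and 1.09 FPKM. Rtp4, an interferon-induced chaperone of membrane receptors, was at 17.998 and 7.497 FPKM, and Irf7, the transcription factor that amplifies the response, at 4.72 and 2.46 FPKM. Of 29 used genes of the list 22 had a ratio below 0, compared with 51.5% of all genes. At least 1.5-fold lower were 12, compared with 6.51% of all genes, and none was 1.5-fold higher. With equal-sum scaling 20 were below 0. The median was -0.48, and -0.44 after length adjustment. The interferon gamma list had a median of -0.06 over 12 genes with none past 1.5-fold, and the genes of MHC class I presentation one of -0.31 over 15.

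These genes are known to be switched on through the interferon-stimulated response element (ISRE) in their promoters. The promoters of 3 of the lower genes are shown because each holds the element, searched as GAAANNGAAA on both strands with overlaps allowed. The windows run from 250 bases before to 50 after the annotated start, 5′ to 3′ on the strand of the gene, from RefSeq (GRCm38.p6), at chr4:156200769-156201068 (minus strand), chr8:71537423-71537722 (minus strand) and chr19:34583279-34583578 (plus strand); capitals mark the matches.
Isg15: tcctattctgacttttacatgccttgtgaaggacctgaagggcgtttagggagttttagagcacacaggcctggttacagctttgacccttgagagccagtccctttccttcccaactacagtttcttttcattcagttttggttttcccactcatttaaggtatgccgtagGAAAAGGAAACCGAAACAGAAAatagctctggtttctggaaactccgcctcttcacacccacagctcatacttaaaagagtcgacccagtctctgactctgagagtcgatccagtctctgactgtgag
Bst2: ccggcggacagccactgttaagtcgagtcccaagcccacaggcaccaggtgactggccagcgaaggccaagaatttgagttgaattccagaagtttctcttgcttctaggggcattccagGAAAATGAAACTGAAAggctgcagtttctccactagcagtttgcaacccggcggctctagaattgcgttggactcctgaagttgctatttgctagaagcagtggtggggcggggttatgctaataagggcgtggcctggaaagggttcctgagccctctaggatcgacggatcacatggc
Ifit3: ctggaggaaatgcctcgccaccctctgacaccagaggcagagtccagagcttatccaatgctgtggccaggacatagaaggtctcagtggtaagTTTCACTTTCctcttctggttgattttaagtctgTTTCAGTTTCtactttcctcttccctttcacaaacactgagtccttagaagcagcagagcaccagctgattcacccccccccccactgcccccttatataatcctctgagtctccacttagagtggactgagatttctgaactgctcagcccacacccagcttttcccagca
The Isg15 window held 3 overlapping matches, the Bst2 window 2 overlapping matches and the Ifit3 window 2 separate matches on the reverse strand. A promoter window was found for 22 of the 29 used interferon genes. Of the 22 genes 14 (63.6%) had a match in a window, compared with 338 of 8940 used genes with a window (3.78%). The median ratio was -0.40 in the 14 genes with a match, 11 of them below 0, and -0.51 in the 8 without, 6 of them below 0. Outside the list, the 324 genes with a match had a median of -0.03. A match is a description of letters and not a binding site.

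**Figure D3:**
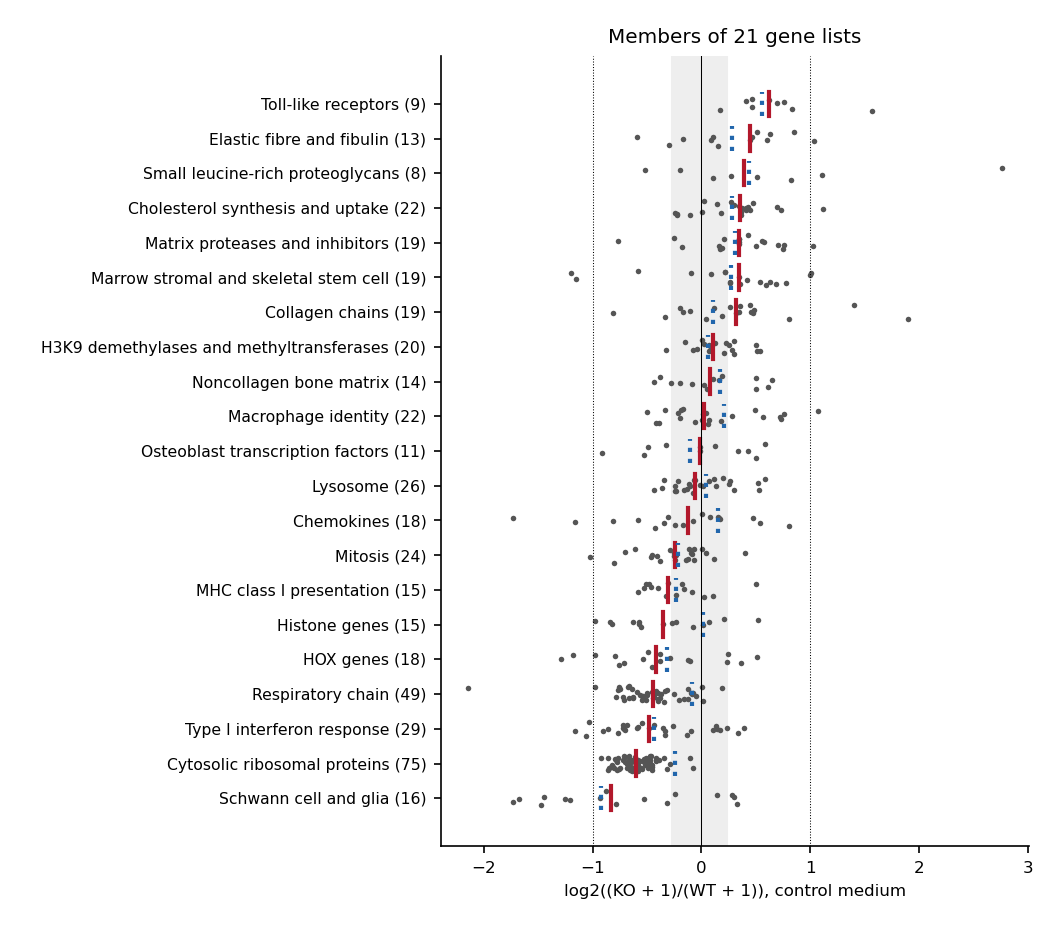
Each point is the log2 ratio of KO to WT in control medium of 1 used gene of the list named on the left, with the number of used genes in brackets. Red bars are the medians and blue dotted bars the length-adjusted medians; the grey band spans the quartiles of all genes and dotted lines mark 2-fold. Schwann cell and interferon medians stay low after adjustment (-0.92 and -0.44), and those of ribosomal and respiratory chain genes move towards 0. Without Cadm4, Pmp2, Cryab and Apod, put on the list with their values known, the adjusted Schwann cell median is -0.45.

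Most of the used Schwann cell and neuroglial genes were lower in KO. Schwann cells wrap the axons of peripheral nerves, and nonmyelinating ones accompany nerve fibres in marrow. Cadm4, the adhesion protein of myelinating Schwann cells, was at 29.5 FPKM in the WT library and 8.18 FPKM in the KO library (ratio -1.73). Pmp2, a myelin lipid carrier, was at 15.5 and 4.18 FPKM in WT and KO, Ngfr, the low-affinity neurotrophin receptor of immature Schwann cells, at 20.6 and 8.31 FPKM, and Foxd3, a neural crest factor, at 3.88 and 1.04 FPKM. Sox10, the defining transcription factor of the lineage, was at 6.07 and 2.83 FPKM. Of 16 used genes 6 were at least 2-fold lower and 9 at least 1.5-fold lower, compared with 0.838% and 6.51% of all genes. None was 1.5-fold higher. The median was -0.83, and -0.92 after length adjustment. Cadm4, Pmp2, Cryab and Apod were put on the list with their values known. Without them the median of the other 12 genes was -0.42, with 5 at least 1.5-fold lower. The median of the 12 was -0.45 after length adjustment and -0.28 after the same adjustment for GC content.

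Not every glial gene took part. Mbp and S100b, both among the 6 Schwann markers, had ratios of 0.28 and 0.14, and Pmp22 was at 201 and 247 FPKM. Of single neuronal genes outside the list, picked because they were lower in KO and thus no evidence on neuronal genes as a group, Uchl1, the neuronal ubiquitin hydrolase, was at 52.1 and 18.5 FPKM, Sncg, for gamma-synuclein, at 38.0 and 13.9 FPKM, Tubb3, the neuronal tubulin, at 25.8 and 12.4 FPKM, and Stmn2, a tubulin-binding protein of neurons, at 1.89 and 0.234 FPKM. Under induction Sox10 was at 0.554 and 2.27 FPKM in WT and KO and Cadm4 at 0.669 and 13.95 FPKM, so the induced KO library was the higher one there. The sum of the 6 Schwann markers under induction was 16.7 FPKM in WT and 26.5 FPKM in KO.

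**Figure D4:**
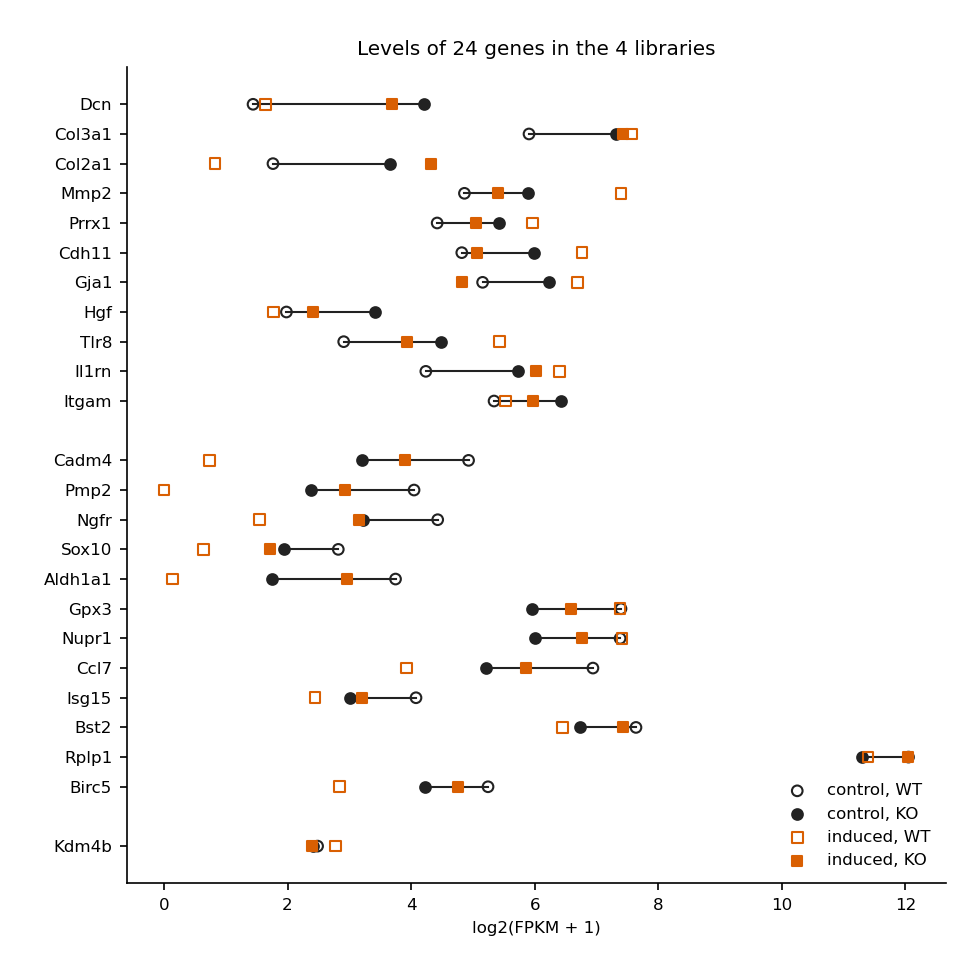
Levels of 24 genes as log2(FPKM + 1) in the control (circles) and induced (squares) libraries labelled WT (open) and KO (filled); lines join the control libraries. The upper genes are higher in control KO, the middle ones lower, and Kdm4b is close to level; Tlr8, Mmp2 and Gja1 are higher in WT under induction, and Cadm4, Pmp2 and Ngfr higher in KO.

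Genes of retinoic acid metabolism differed in direction within the family. Aldh1a1, a retinaldehyde dehydrogenase that makes retinoic acid, was at 12.4 FPKM in the WT library and 2.37 FPKM in the KO library (ratio -1.99), and its close relative Aldh1a7 at 3.07 and 0.604 FPKM. Crabp2, which carries retinoic acid to the nucleus, was at 8.42 and 3.37 FPKM. In contrast Aldh1a2, the retinaldehyde dehydrogenase with the highest level here, was at 37.6 and 51.4 FPKM. The 12 used genes of the list had a median of -0.05. Of 15 listed keratin and epithelial genes only 3 were used. Of these, 2 were at least 2-fold lower, compared with 0.838% of all genes, and the other had a ratio of 0.08. The lower ones were Krt19, a simple epithelial keratin, at 10.4 and 3.64 FPKM, and Sfn, an epithelial 14-3-3 protein, at 5.04 and 1.05 FPKM. With no minimum FPKM the list median was -0.03, so the 3 used genes do not speak for the list. Cd24a, which is not among the 3 and is no evidence on epithelial genes as a group, was at 20.3 and 8.15 FPKM.

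Gpx3, the secreted glutathione peroxidase, was at 167 FPKM in the WT library and 60.8 FPKM in the KO library (ratio -1.45), and Nupr1, a stress-induced chromatin protein, at 166 and 63.1 FPKM. Both were lower in KO under induction too, Gpx3 at 166 and 94.8 FPKM in WT and KO and Nupr1 at 169 and 108 FPKM. Cryab, a small heat shock protein, was at 223 and 81.2 FPKM, and Hspb1, its relative, at 73.6 and 37.0 FPKM. Ddit3, the stress factor CHOP, was at 65.0 and 30.6 FPKM, and Phgdh, the first enzyme of serine synthesis, at 43.5 and 20.2 FPKM. Of 24 folding and stress genes of the endoplasmic reticulum 1, Ddit3, was 1.5-fold lower and 1 higher. The cytosolic heat shock list had 3 of 16 genes 1.5-fold lower and 1 higher. The antioxidant list had 4 of 26 genes 1.5-fold lower and none higher. Of all genes 6.51% were 1.5-fold lower and 4.98% higher. The antioxidant list had a median of -0.22 and a length-adjusted median of 0.03. Mrap, an accessory protein of melanocortin receptors that is on in fat cells, was at 14.1 and 2.78 FPKM. Its neighbours on the fat cell list were less far apart, with Fabp4, the fatty acid carrier of fat cells and macrophages, at 313 and 196 FPKM.

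The abundant short transcripts of the translation and energy machinery were lower in KO together, each by a small step. All 75 used cytosolic ribosomal protein genes had a ratio below 0, compared with 51.5% of all genes. Of these, 43 were at least 1.5-fold lower, compared with 6.51% of all genes, yet none reached 2-fold. With equal-sum scaling 73 stayed below 0, and after length adjustment 70 did. Only 4 were still at least 1.5-fold lower after length adjustment, compared with 3.11% of all genes. Their ratios ran from -0.92 to -0.07 with a median of -0.61. The median transcript length was 1094 bases, compared with 3310 bases over all genes, and the length-adjusted median was -0.24. Rplp1, an acidic stalk protein and the most abundant member, was at 4239 and 2514 FPKM, and Rpl38, the member with the lowest ratio, at 3098 and 1638 FPKM. Under induction the same genes had a median of 0.41, and Rplp1 was at 2693 and 4193 FPKM in WT and KO. Many of these genes have processed pseudogenes, and how reads shared with them were counted is not given in the sources used here.

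Ribosomal protein messages are known for a 5′ terminal oligopyrimidine start, a C followed by a run of C or T, through which their translation is regulated. The starts of 3 lower members are shown from 30 bases before to 30 bases after the annotated start (RefSeq, GRCm38.p6, plus strand, chr11:114668550-114668609, chr7:141447621-141447680 and chr2:180257349-180257408), with the pyrimidine run in capitals.
Rpl38: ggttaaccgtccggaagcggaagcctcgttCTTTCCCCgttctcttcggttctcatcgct
Rplp2: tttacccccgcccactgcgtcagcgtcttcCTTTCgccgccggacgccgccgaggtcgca
Rps21: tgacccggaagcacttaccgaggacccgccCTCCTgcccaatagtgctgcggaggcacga
Rplp2, for another stalk protein, was at 2248 and 1287 FPKM, and Rps21, of the small subunit, at 1919 and 1059 FPKM. A start of C and at least 4 further C or T bases was found in 13 of 55 ribosomal protein genes with a window (23.6%) and in 275 of 8940 used genes (3.08%).

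The respiratory chain had a median of -0.45 over 49 genes, and -0.09 after length adjustment. Of these genes 46 were below 0 (39 with equal-sum scaling), compared with 51.5% of all genes. Ndufb7, a subunit of complex I, was at 358 and 181 FPKM, Cox4i1, of complex IV, at 991 and 601 FPKM, and Sdha, of complex II with a longer transcript, at 73.2 and 83.7 FPKM. Its only member past 2-fold, Ndufs5, stood at 3.44 and 0.000551 FPKM, near 0 for a subunit of an abundant complex, and is uncertain. Mitochondrial ribosomal proteins had a median of -0.44 (-0.18 adjusted), proteasome subunits -0.35 (-0.13 adjusted) and histones -0.35 (0.01 adjusted). With both libraries scaled to an equal sum these medians kept their sign but came closer to 0.

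The calcium-binding S100 proteins, a family of small proteins grouped after their values were seen, were low as well. S100a6 was at 2424 FPKM in the WT library and 1143 FPKM in the KO library, S100a4, a marker of fibroblasts and macrophages, at 2149 and 1234 FPKM, and S100a16 at 92.04 and 37.7 FPKM. Of 11 used members 9 were at least 1.5-fold lower, compared with 6.51% of all genes, and the median was -0.85. After adjustment for their short length 3 were still 1.5-fold lower, compared with 3.11% of all genes, and the median was -0.42. Tmsb10, an actin-binding thymosin, was at 1389 and 674 FPKM and Sh3bgrl3, a small thioredoxin-like protein, at 932 and 415 FPKM.

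Among cell cycle genes, those of mitosis had a median of -0.24 (-0.22 adjusted). Of 24 used, 4 were at least 1.5-fold lower, compared with 6.51% of all genes. The 4 included Birc5, for survivin, at 36.9 and 17.6 FPKM, and Cdc20, an activator of the anaphase-promoting complex, at 15.2 and 8.29 FPKM. The others were Ccnb2 at 18.3 and 10.8 FPKM and Ube2c at 30.4 and 19.6 FPKM. Mki67, the proliferation marker, was at 10.6 and 8.79 FPKM. DNA replication genes had a median of -0.09, and Pcna, the polymerase clamp, was at 219 and 261 FPKM. Cdkn2a, which encodes the arrest proteins p16 and p19, was at 267 and 143 FPKM (ratio -0.90, length-adjusted -0.42).

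HOX genes, which record position along the body axis, had a median of -0.42 over 18 used genes (-0.32 adjusted). Of these, 6 were at least 1.5-fold lower, compared with 6.51% of all genes, and none was higher. After length adjustment 3 were 1.5-fold lower and 1 higher. The list median was -0.20 with no minimum FPKM and -0.12 with a minimum of 5 FPKM. The 5 used genes of the HOXB cluster had a median of -0.98. They included Hoxb4 at 6.04 and 2.58 FPKM, Hoxb2 at 2.18 and 0.402 FPKM and Hoxb6 at 1.45 FPKM in WT and listed at 0 in KO. Hoxb2 and Hoxb6 passed the minimum of 1 FPKM only in WT, so a lower level in KO was a condition of their use. The 8 of the HOXA cluster had a median of 0.07, and the 4 of the HOXC cluster one of -0.33. Hoxb9, which is not on the list, was at 5.34 and 2.02 FPKM. Most of these levels were low, and the difference between clusters was not tested.

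Genes of cholesterol synthesis and uptake were higher in KO by a small step. Stard4, which moves cholesterol between membranes, was at 3.37 FPKM in the WT library and 8.50 FPKM in the KO library, Idi1, an isomerase of the isoprenoid steps, at 26.3 and 43.3 FPKM, and Hsd17b7, of the later steps, at 7.56 and 13.2 FPKM. Hmgcs1 and Sqle, targets of the sterol-sensing factor SREBP2, were at 51.4 and 69.4 FPKM and 34.9 and 46.9 FPKM. The 22 used genes had a median of 0.36 (0.28 adjusted), with 18 above 0, compared with 5671 of all 11698 genes. At least 1.5-fold higher were 3, compared with 4.98% of all genes. Cholesterol export followed with Abca1 at 5.47 and 10.6 FPKM, and the lipid scavenger receptor Cd36 was at 20.2 and 40.4 FPKM.

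The lineage factors Runx2, Pparg and Cebpa were close to level in control medium, while other genes of bone and fat varied. Runx2, the master factor of osteoblasts, was at 3.21 FPKM in the WT library and 3.18 FPKM in the KO library, Sp7, which acts after it, at 2.11 and 3.40 FPKM, and Dlx5, a homeobox factor of bone, at 3.49 and 4.67 FPKM. Of 11 used osteoblast transcription factors Msx2 was 1.5-fold lower (6.61 and 3.04 FPKM) and Cbfb, the partner of Runx2, 1.5-fold higher (38.6 and 58.6 FPKM). The median of the 11 was -0.01, and with a minimum of 5 FPKM the list median was -0.41. Spp1, for osteopontin, was at 3152 and 3210.4 FPKM, Alpl, the phosphatase of mineralisation, at 8.90 and 8.33 FPKM, and Mgp, an inhibitor of mineralisation, at 834 and 1275 FPKM. Pparg, the master factor of fat cells, was at 37.3 and 36.7 FPKM and Cebpa at 109 and 108 FPKM. The 10 fat cell factors had a median of -0.01. The 17 used genes of fat cell function had a median of -0.18 (-0.14 length-adjusted). Of these, 4 were at least 1.5-fold lower, compared with 6.51% of all genes, and 1 was 1.5-fold higher.

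Some of the largest ratios belong to entries that share sequence with another entry and are uncertain. Rn45s, for the precursor of ribosomal RNA, had a listed value of 0 in the control WT library but 13586 FPKM in KO, and 12553 and 15014 FPKM under induction, so the control WT library stood apart. Atp6v0c, the proton channel subunit of the vacuolar pump, was at 64.9 and 555 FPKM, but its copy Atp6v0c-ps2 was at 1158 and 573 FPKM, and the 2 entries summed to 1223 and 1128 FPKM. Likewise the joint entry Rps27,Rps27rt was at 234 and 763 FPKM and Rps27rt at 2256 and 761 FPKM, with sums of 2490.1 and 1523 FPKM. Ugt1a6b shares exons with the other entries of its cluster, which together were at 26.2 and 31.0 FPKM, and the part of shared reads in its own 10.1 and 1.96 FPKM was not tested. Erdr1 (2.31 and 66.0 FPKM) is likewise a repeated sequence.

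Across all 80 lists, with 1252 of 1582 genes used, 70 lists had at least 5 used genes and 35 of these held no member past 2-fold. A median of 0.3 or more was found in 8 lists and one of -0.3 or less in 11. After length adjustment 3 of the 8 (small leucine-rich proteoglycans, matrix proteases, Toll-like receptors and NF-kB) and 3 of the 11 (Schwann cell and glia, type I interferon, HOX) were still past that size. With no minimum FPKM the unadjusted medians of the proteoglycan and HOX lists were 0.24 and -0.20. Without Cadm4, Pmp2, Cryab and Apod, put on the list with their values known, the length-adjusted Schwann cell median was -0.45.

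The induced libraries give the same labels in another medium without a shared library. Over all genes used, 50.1% had an induced ratio above 0. Of the 78 genes 2-fold higher in control medium 38 were above 0 under induction, 16 were again 2-fold higher and 21 were 2-fold lower. Of the 98 genes 2-fold lower 25 were below 0 under induction, 5 were again 2-fold lower and 35 were 2-fold higher. Higher in KO in both media were Dcn, Pla1a, Col2a1 (at 0.773 and 19.01 FPKM under induction in WT and KO) and Cygb (0.870 and 11.9 FPKM), and lower in both were Pcolce2 (14.6 and 4.04 FPKM), Crabp2 (7.15 and 1.92 FPKM) and Il34 (19.3 and 3.85 FPKM). Nrep, a gene of regenerating nerve and fibroblasts, was at 3.11 and 7.70 FPKM in control medium and at 33.2 and 2.16 FPKM under induction, higher in KO in one medium and in WT in the other. Across 11624 genes the ratios of the media had a Spearman correlation of -0.55, and of -0.41 after length adjustment of both, as a description across genes.

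**Figure D5:**
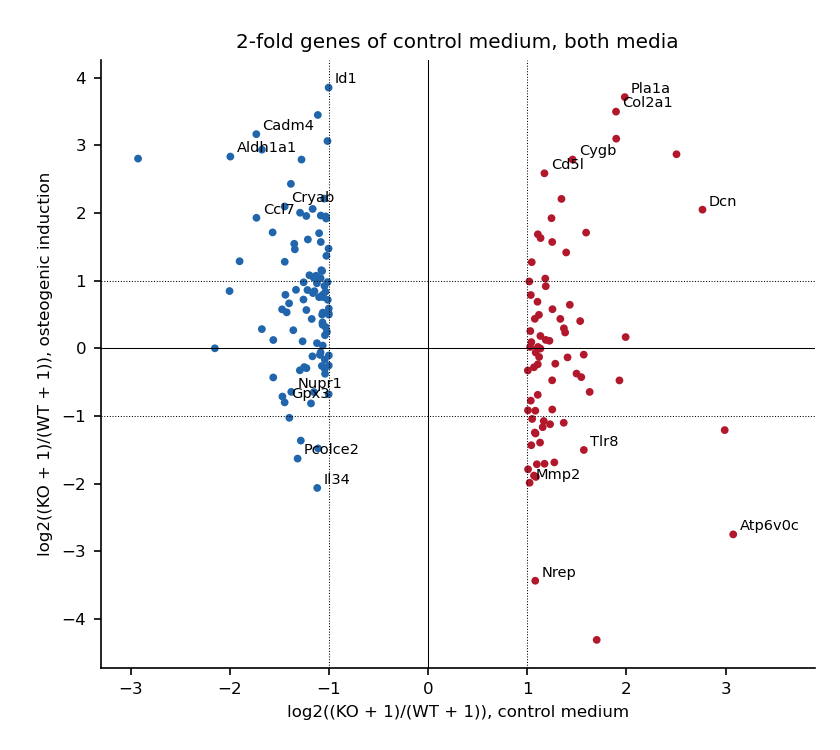
Each point is 1 gene at least 2-fold higher (red) or lower (blue) in KO in control medium, with its control ratio on the x axis and its ratio under osteogenic induction on the y axis; dotted lines mark 2-fold, and Rn45s and Erdr1 are beyond the range drawn. Among red points 21 lie at or below -1 on the y axis and 16 at or above 1, and among blue points 35 lie at or above 1 and 5 at or below -1.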

How the data were processed

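Per the labels, bead-selected polyadenylated RNA of primary mouse marrow cells went into a stranded library kit. The deposited values were FPKM, per the file headers, in 2 tables (control and induced) of 24346 entries each. Per the submitters' processing notes, TopHat and Cufflinks were used with build mm9; versions, annotation, strand setting and read totals are not given in the sources used here. Low values put the depth of the control KO library at 0.841 to 0.901 of the WT library. The control libraries were assigned by column names, since the sheet name of their table carried the abbreviation for induction.

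Per file, 27 entries with a date and 1283 small RNA entries were dropped. A pseudocount of 1 and a minimum of 1 FPKM were used, and fold changes on this scale understate those of low genes. With 1 library per group no test was possible, so genes were counted past 2-fold and 1.5-fold. Transcript lengths and GC content (longest transcript, GENCODE M21) and promoters (RefSeq, GRCm38.p6) were matched by symbol, with a length for 99.4% of genes, and no coordinates of mm9 were used. Length adjustment used 20 bins and was tested on simulated data. Named were Kdm4b, the 30 highest and 30 lowest ratios with at least 5 FPKM, and list members past 2-fold, else the 2 largest, and the most abundant; not all are named, some genes are not reported here, and others named were chosen after their values were seen. The members and lists were chosen with earlier results of these data known. Alternatives were other pseudocounts, minimums and scalings and a GC adjustment. Python 3, pandas, NumPy and SciPy were used.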

Additional observations from a re-analysis of the deposited data

Results flagged for a closer look

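Of the genes at least 2-fold higher in the library labelled KO in control medium, 21 were at least 2-fold lower in KO under induction, and of those at least 2-fold lower, 35 were at least 2-fold higher under induction. These opposite directions between media are single libraries against single libraries and the difference was not tested. The induced WT library was the only one of the 4 without female-type Xist.

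Several lists had median ratios of opposite sign in the media. In control medium the medians were 0.39 for small leucine-rich proteoglycans, 0.35 for matrix proteases and inhibitors and 0.34 for marrow stromal genes, and under induction they were -0.87, -0.39 and -0.79. The Schwann cell list was at -0.83 in control medium and 0.65 under induction, and at -0.42 and 0.44 without the 4 genes added with their values known. The interferon list was at -0.48 and 0.31 and MHC class I presentation at -0.31 and 0.37. The large-subunit ribosomal proteins were at -0.60 and 0.39, the small-subunit ones at -0.61 and 0.45, and the mitochondrial ribosomal proteins at -0.44 and 0.43. The respiratory chain was at -0.45 and 0.50, the histones at -0.35 and 0.32, and the list of noncoding and mitochondrially encoded RNA at -0.39 and 0.44. None of these differences was tested.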

How the results depend on the processing

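The counts of genes past 2-fold, 78 higher and 98 lower, moved with the scale. They were 195 and 255 with a pseudocount of 0.1, 25 and 23 with a pseudocount of 5, and 60 and 64 with a minimum of 5 FPKM. Scaling to an equal sum gave 158 higher and 53 lower with the median of all genes at 0.16. The same scaling without Rn45s, chosen after seeing the data, gave 193 and 51 with the median at 0.20. Subtracting the length trend gave 69 and 48. No minimum (78 and 98), a median ratio of 0 (85 and 89) and the GC trend subtracted, also chosen after seeing the data (68 and 84), stayed within 1.5 times. The causes were not tested, except that a larger pseudocount shrinks every ratio by construction. No gene past 2-fold that the naming rule took changed sign under any of these settings. Of the 80 list medians, 43 changed sign in at least 1 setting, 19 with the length trend subtracted, 25 with an equal sum and 28 with an equal sum without Rn45s. Among them were histones and antioxidant genes (0.01 and 0.03 with the length trend subtracted), chemokines, osteoblast transcription factors, retinoic acid, collagen processing, DNA replication and contractile genes, while the interferon, Schwann cell, HOX, ribosomal, collagen, proteoglycan, protease and Toll-like receptor medians kept their sign in all settings. No paired analysis was possible because each group holds 1 library and the labels give no replicate numbers. Depth is unknown beyond the ratio of the low values, so the counting error of low genes cannot be given.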

Other observations

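Among the genes at least 2-fold higher in the control library labelled KO were 5 of carriers, sugar transfer and coenzyme synthesis, picked from that group after their values were seen and thus no evidence on such genes as a whole. Slc35a3, a carrier of nucleotide sugars into the Golgi, was at 4.83 and 11.3 FPKM in WT and KO, and Mgat5, which branches N-linked glycans, at 3.24 and 8.13 FPKM. Alg10b, a glucosyltransferase of the N-glycan precursor, had a ratio of 1.10. Slc25a36, a mitochondrial carrier of pyrimidine nucleotides, was at 5.68 and 12.7 FPKM, and Pank3, a kinase of coenzyme A synthesis, at 7.12 and 15.8 FPKM. All 5 were lower in KO under induction, with ratios from -1.71 for Alg10b to -0.69 for Mgat5.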
